A study of Bos taurus with 16 samples.

Results

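Neuropilin 1 (NRP1, ENSBTAG00000019866), the ephrin receptor EPHA3 (ENSBTAG00000006811), the receptor phosphatase PTPRT (ENSBTAG00000000309) and PLPPR4 (ENSBTAG00000019031) are cell surface proteins best known from axon guidance and neural adhesion. They are 4 of the 19454 genes in the count table, and all 4 passed the filter on low counts in each of the comparisons described here. The genes were chosen from results of the Creb5 knockdown in these same libraries, so their differences between shRNAs are given as a description with no test. Chondrocytes came from a thin superficial slice of femoropatellar knee cartilage of calves 1 to 2 weeks old, and after 2 days in culture lentivirus delivered either a scrambled control hairpin (shScramble) or a hairpin directed at the Creb5 transcript (shCreb5). Infected cells were selected by puromycin at 0.8 µg/ml over 5 days. The treatment that followed lasted 48 hours and took place on low attachment plates. In condition A the medium held TGFα at 100 ng/ml, and condition AB added TGFβ2 at 20 ng/ml to the same dose of TGFα. All 4 groups therefore carried a lentivirus, had been selected with puromycin and received TGFα. Each group had 1 library from each of the same 4 calves, 16 in all, with between 14710867 and 21853634 counts per library.

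Neuropilins are co-receptors that bind class 3 semaphorins together with plexins, and also bind members of the VEGF family. Eph receptors are tyrosine kinases that bind ephrins on the surface of neighbouring cells and take part in repulsion and sorting of cells. PTPRT belongs to the receptor tyrosine phosphatases whose extracellular parts bind the same protein on adjacent cells, and PLPPR4 is a membrane protein related to the lipid phosphate phosphatases that was described in neurons.

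CREB5 itself (ENSBTAG00000018909), the target of the shRNA, was measured first as a check of the labels. With shScramble in condition A it was at 124, 71.4, 77.8 and 105 CPM in calves 1 to 4, and with shCreb5 at 86.1, 44.7, 57.7 and 72.6 CPM. CPM are counts scaled to a common library size. In condition AB the values were 83.0, 59.0, 62.7 and 78.7 CPM with shScramble and 43.0, 36.2, 31.1 and 34.9 CPM with shCreb5. The knockdown libraries had less CREB5 than their controls in each of the 4 calves and in both conditions, and a substantial part of its RNA remained. CREB5 also fell with TGFβ2, with log2 fold changes of -0.40 in shScramble cells (edgeR adjusted p = 0.0195, lower in 4 of 4 calves) and -0.82 in shCreb5 cells (edgeR adjusted p = 0.00360, lower in 4 of 4 calves). PRG4 (ENSBTAG00000011932), the lubricin gene that marks the superficial zone, was present in every library, at 2464 CPM or more. It rose with TGFβ2 by 1.94 on the log2 scale in shScramble cells (edgeR adjusted p = 0.00113, higher in 4 of 4 calves), where the DESeq2 adjusted p was 0.0863, and by 1.91 in shCreb5 cells (edgeR adjusted p = 0.00126, higher in 4 of 4 calves). GDF5, a growth factor of forming joints and the remaining gene of the superficial zone list, rose by 1.57 and 1.55 (edgeR adjusted p = 0.00104 and 0.00146). Of the chondrocyte markers with an identifier, COL11A1 and HAPLN1 were also abundant, while COL2A1, ACAN and SOX9 were not analysed here.

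NRP1 was the member whose level followed TGFβ2 most closely. In condition A it was at 520, 172, 507 and 541 CPM in calves 1 to 4 with shScramble, and at 408, 83.8, 344 and 270 CPM with shCreb5. In condition AB it was at 109, 42.5, 119 and 140 CPM with shScramble, and at 56.2, 20.0, 77.7 and 38.5 CPM with shCreb5. With either shRNA, every library with TGFβ2 lay below every library without it, and calf 2 had the lowest value of each group. The order of the group means was shScramble A (435 ± 176 CPM, SD, n = 4), shCreb5 A (276 ± 140), shScramble AB (103 ± 42.0) and shCreb5 AB (48.1 ± 24.6). Neighbouring groups in that order overlapped, but each step was downward in 4 of 4 calves.

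With TGFβ2, NRP1 fell by 2.08 on the log2 scale in shScramble cells (standard error 0.10, edgeR adjusted p = 3.54e-05 by its quasi-likelihood method, lower in 4 of 4 calves). In shCreb5 cells it fell by 2.48 (standard error 0.16, edgeR adjusted p = 0.000203, lower in 4 of 4 calves). These are ratios of 4.23 and 5.57 between the conditions. Only 0.450% of the genes tested in shScramble cells and 0.313% in shCreb5 cells had a lower fold change.

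**Figure D1:**
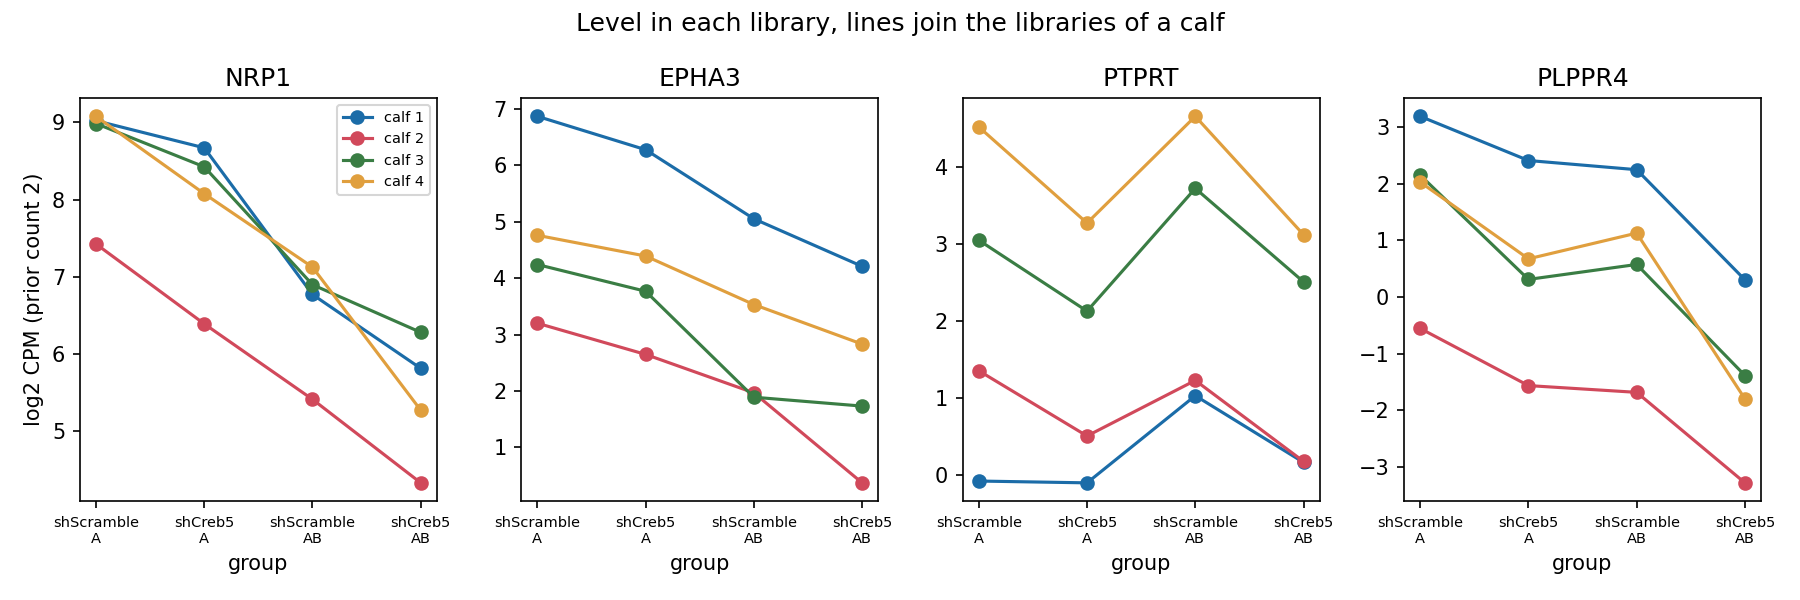
Level of each gene in each of the 16 libraries as log2 CPM with a prior count of 2 (vertical axis, a separate scale for each gene) in the 4 groups (horizontal axis), with points of the same calf joined by a line. NRP1 and EPHA3 step down across the groups, PTPRT is lower with shCreb5 in both conditions, and the lines of the calves lie far apart for EPHA3, PTPRT and PLPPR4.

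EPHA3 differed far more between calves. With shScramble in condition A it was at 117, 9.09, 18.8 and 27.0 CPM in calves 1 to 4, and with shCreb5 at 77.6, 6.16, 13.5 and 20.9 CPM. In condition AB the values were 33.1, 3.80, 3.60 and 11.5 CPM with shScramble and 18.4, 1.19, 3.22 and 7.01 CPM with shCreb5. Calf 1 was the highest in every group, and all groups overlapped, because calf 1 with TGFβ2 exceeded at least 1 of the other calves without it. The order of the group means was the same as for NRP1, at 43.0 ± 49.9, 29.5 ± 32.6, 13.0 ± 13.9 and 7.45 ± 7.69 CPM (SD, n = 4), and each step was downward in 4 of 4 calves although it was smaller than the spread between calves. EPHA3 fell by 1.67 on the log2 scale with TGFβ2 in shScramble cells (standard error 0.19, edgeR adjusted p = 0.00104, lower in 4 of 4 calves). The corresponding drop in shCreb5 cells was -1.98 (standard error 0.14, edgeR adjusted p = 0.000277, lower in 4 of 4 calves).

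PLPPR4 was close to the limit of detection in several libraries. Its counts with shScramble in condition A were 224, 12, 83 and 88 in calves 1 to 4, or 8.99, 0.577, 4.33 and 3.97 CPM. With shCreb5 in condition A there were 113, 5, 21 and 33 counts, or 5.20, 0.235, 1.136 and 1.49 CPM. Calf 1 had the most and calf 2 the fewest counts in these groups. In condition AB, PLPPR4 had 98, 4, 25 and 31 counts with shScramble, or 4.63, 0.208, 1.38 and 2.08 CPM. The shCreb5 libraries of condition AB had 20, 0, 4 and 3 counts, which is 1.13, 0, 0.280 and 0.184 CPM. The count of 0 in calf 2 allows up to 3 counts, or 0.162 CPM, a limit that covers counting error only.

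The PLPPR4 group means were 4.47 ± 3.46 CPM in shScramble A, 2.08 ± 1.87 in shScramble AB, 2.01 ± 2.19 in shCreb5 A and 0.398 ± 0.501 in shCreb5 AB (SD, n = 4). The middle pair did not differ beyond their spread, with shScramble AB above shCreb5 A in 2 of 4 calves. With TGFβ2, PLPPR4 fell by 1.18 on the log2 scale in shScramble cells (standard error 0.22, edgeR adjusted p = 0.00764, lower in 4 of 4 calves). In shCreb5 cells it fell by 2.40 (standard error 0.38, edgeR adjusted p = 0.00338, lower in 4 of 4 calves). Without calf 1, PLPPR4 did not pass the filter on low counts in the shCreb5 comparison, so that test rests on the calf with most of its counts.

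PTPRT was the exception among the members. With shScramble in condition A it was at 0.843, 2.45, 8.19 and 22.9 CPM in calves 1 to 4, and with shCreb5 at 0.828, 1.32, 4.27 and 9.57 CPM. In condition AB it was at 1.94, 2.24, 13.1 and 25.2 CPM with shScramble and at 1.02, 1.03, 5.59 and 8.61 CPM with shCreb5. Calf 4 was the highest in each group, and all groups overlapped. The means were 10.6 ± 11.0 CPM in shScramble AB, 8.60 ± 10.0 in shScramble A, 4.06 ± 3.72 in shCreb5 AB and 3.998 ± 4.02 in shCreb5 A (SD, n = 4). Within each shRNA the conditions did not differ beyond their spread.

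No change of PTPRT with TGFβ2 was called. In shScramble cells the log2 fold change was 0.42 (95% interval -0.05 to 0.89, edgeR adjusted p = 0.193, higher in 3 of 4 calves), and it was 0.27 without calf 1, which had 21 and 41 counts. In shCreb5 cells it was 0.04 (95% interval -0.42 to 0.50, higher in 2 of 4 calves), with edgeR adjusted p = 0.991. For that gene and comparison edgeR replaced the unadjusted p of its F test, 0.848, with a larger p of 0.986 from a Poisson model, as it does for genes whose fitted variance is below that of Poisson counts. The interval comes from the F test and carries no such replacement. Without this step the edgeR adjusted p was 0.902, and PTPRT was again not called.

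Thus 3 of 4 members were called lower with TGFβ2 in shScramble cells, where 9.15% of 12879 genes were called lower and 19.8% in either direction. The same 3 were called lower in shCreb5 cells, where 14.5% of 12769 genes were called lower and 30.4% in either direction. NRP1 was the 1 member whose groups did not overlap in each comparison, which held for 4.12% of genes in shScramble cells and 5.25% in shCreb5 cells in the same direction. Each TGFβ2 comparison shares 4 libraries with each knockdown comparison from which the members were chosen, so the TGFβ2 values are not fully independent of that choice. Without calf 3 the genes called numbered 1366 in shScramble cells, against 2556 with all calves. In shCreb5 cells they numbered 2408 without calf 3 and 1962 without calf 4, against 3884. Fitted with no term for the calf, edgeR called 0 of 4 members in either comparison, and the adjusted p of NRP1 was then 0.0584 in shScramble and 0.0570 in shCreb5 cells. In bulk RNA, fewer cells that express a gene and less of its RNA per cell cannot be told apart.

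**Figure D2:**
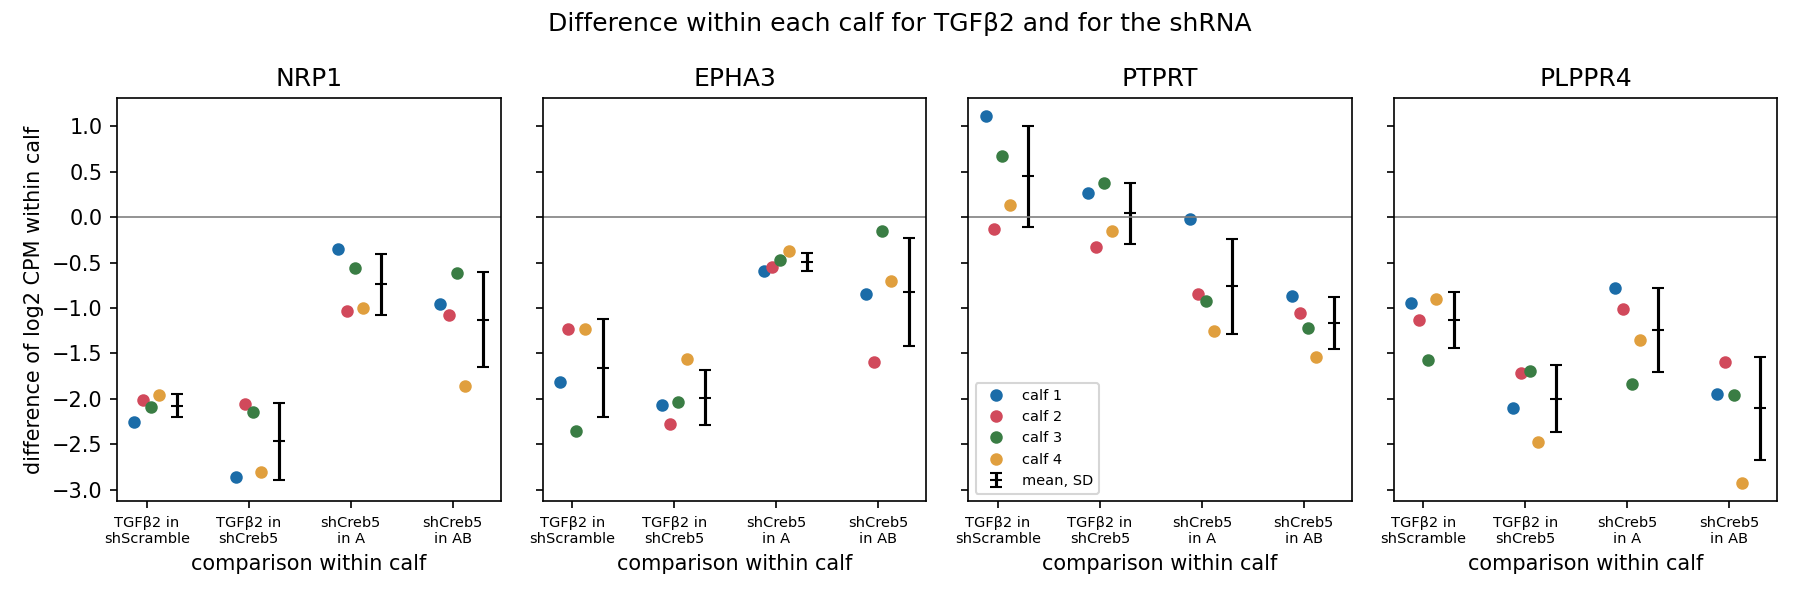
Difference of log2 CPM (prior count 2) within each calf (vertical axis) for TGFβ2 in each shRNA and for shCreb5 in each condition (horizontal axis), with 1 point per calf and the mean with its SD as a bar. The TGFβ2 differences of NRP1, EPHA3 and PLPPR4 lie below 0 in 4 of 4 calves, and those of PTPRT lie on both sides of 0.

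Between shRNAs, each of the 4 members had less RNA with shCreb5 in every calf and in both conditions, and this is the contrast from which they were chosen. In condition A, 8.50% of 12922 genes were lower in 4 of 4 calves, and in condition AB 9.17% of 12664 genes. The mean difference of log2 CPM within calves in condition A was -0.74 ± 0.34 for NRP1, -0.50 ± 0.10 for EPHA3, -0.76 ± 0.52 for PTPRT and -1.25 ± 0.46 for PLPPR4 (SD, n = 4). In condition AB it was -1.13 ± 0.52 for NRP1, -0.83 ± 0.59 for EPHA3, -1.17 ± 0.29 for PTPRT and -2.11 ± 0.57 for PLPPR4. The PLPPR4 value in AB depends on the prior count of 2, since calves 2, 3 and 4 had 0, 4 and 3 counts with shCreb5. In calf 1 the PTPRT difference in condition A was only -0.02, from 21 and 18 counts. Over all genes tested, edgeR called 0% in either condition, with 1144 genes in A and 1078 in AB at an unadjusted p under 0.05, and DESeq2 called 0.630% in A and 0.417% in AB. No calls are given for the members, since the knockdown chose them.

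Markers of other cell types moved in different directions between shRNAs, also within a list. In condition A the log2 fold change with shCreb5 was 1.08 for THY1, 0.72 for VWF and 0.86 for CD68, each higher in 4 of 4 calves. The other gene of each of these lists did not rise with it, at -0.27 for COL3A1, -0.40 for TEK (lower in 4 of 4 calves) and 0.08 for CD14. None of THY1, VWF and CD68 was called by edgeR, with adjusted p of 0.509, 0.509 and 0.519, and DESeq2 called THY1, with an adjusted p of 0.00711. In condition AB the log2 fold change was 0.72 for THY1, -0.01 for VWF and 0.01 for CD68, and it was -0.28 for COL3A1, -0.20 for TEK and -0.38 for CD14, the last lower in 4 of 4 calves. The adipocyte marker LPL was higher there in 4 of 4 calves, with 0.93, and both CD14 and LPL had an edgeR adjusted p of 0.584. Of the superficial zone markers, PRG4 had log2 fold changes with shCreb5 of -0.63 in A and -0.65 in AB (lower in 4 and 3 of 4 calves). GDF5 had -0.56 in A and -0.59 in AB (lower in 3 and 2 of 4 calves). Neither was called by edgeR, with adjusted p from 0.502 to 0.612. DESeq2 called PRG4 in A, with an adjusted p of 8.77e-07, but not in AB, where it was 0.302. GDF5 was not called by DESeq2 in A or AB, with adjusted p of 0.481 and 0.761. The chondrocyte markers changed from -0.29 in A to 0.34 in AB for COL11A1 and from -0.34 to 0.20 for HAPLN1, with no call by either tool. COL11A1 was higher with shCreb5 in 2 of 4 calves in A and 4 of 4 in AB, and HAPLN1 in 2 and 3 of 4. The part of these markers in the lower levels of the members with shCreb5 was not tested.

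The difference of the knockdown effects between conditions equals the difference of the TGFβ2 responses between shRNAs, and was tested in all 16 libraries. It is built from the knockdown effects that chose the members, so for them this test is not independent of the choice. The log2 estimates were -0.39 (standard error 0.25) for NRP1, -0.31 (0.26) for EPHA3, -0.35 (0.31) for PTPRT and -1.12 (0.42) for PLPPR4. All 4 had an edgeR adjusted p of 0.961, and 0 of 4 were called. The difference was negative in 4 of 4 calves for NRP1, PTPRT and PLPPR4 and in 3 of 4 for EPHA3. The estimate of EPHA3 was -0.14 without calf 2. How many of all genes were negative in 4 of 4 calves was not counted. Nothing about the members as a set is therefore read from these directions. For NRP1 the difference was close to none in calves 2 and 3, at -0.05 and -0.06, beside -0.61 and -0.85 in calves 1 and 4. For PLPPR4 it was only -0.12 in calf 3. The estimate of PLPPR4 rests on the low counts given above. For CREB5 itself it was -0.41, negative in 4 of 4 calves, from knockdown log2 fold changes of -0.54 in A and -0.96 in AB. VWF (-0.73), CD68 (-0.85), CD14 (-0.46) and THY1 (-0.32) were negative in 4 of 4 calves. LPL (1.06), COL11A1 (0.75) and HAPLN1 (0.57) were positive in 4 of 4 calves. PRG4, GDF5, COL3A1 and TEK went both ways between calves. The part of CREB5 and these markers in the estimates of the members was not tested. Across the table edgeR called 0% of 13372 genes, with 571 at an unadjusted p under 0.05, and DESeq2 called 10 genes or 0.0514%, among them 0 members. The larger log2 fold changes of NRP1, EPHA3 and PLPPR4 with TGFβ2 in shCreb5 cells were therefore not shown to differ from those in shScramble cells.

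The 4 genes differed in how their spread over the libraries divided between calf, TGFβ2 and shRNA. Of the sum of squares of log2 CPM, TGFβ2 took 62.0% for NRP1, 30.2% for EPHA3, 18.9% for PLPPR4 and 0.595% for PTPRT. The calf took 24.8% for NRP1, 63.5% for EPHA3, 56.5% for PLPPR4 and 87.0% for PTPRT, beside a median of 46.3% over 13372 genes. The shRNA, which chose the members, took 10.4% for NRP1, 3.97% for EPHA3, 21.6% for PLPPR4 and 9.24% for PTPRT. Over the 13372 genes the median share was 11.7% for TGFβ2 and 2.38% for the shRNA.

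**Figure D3:**
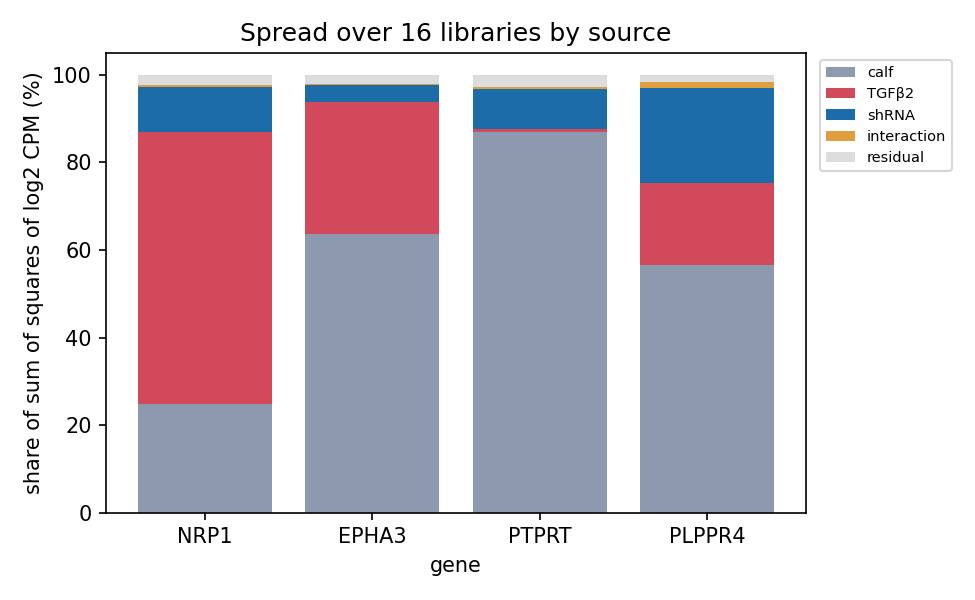
Share of the sum of squares of log2 CPM over 16 libraries (vertical axis, in percent) that belongs to calf, TGFβ2, shRNA, their interaction and the residual (stacked colours), for each gene (horizontal axis). TGFβ2 holds most of the bar of NRP1, and the calf holds most of the bars of the other genes, up to 87.0% for PTPRT.

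Calves differed in different directions for different members. With the prior count of 2, the geometric mean of EPHA3 over the libraries of a calf was 48.6 CPM in calf 1 and 4.13 CPM in calf 2, a ratio of 11.8. For PLPPR4 the extremes were the same calves, at 4.10 and 0.293 CPM, a ratio of 14.0 that depends on the prior count, since calf 2 had between 0 and 12 counts per library. PTPRT had its lowest mean in calf 1, at 1.19 CPM, and its highest in calf 4, at 14.9 CPM, a ratio of 12.5. NRP1 ranged from 59.3 CPM in calf 2 to 201 CPM in calf 3, a ratio of 3.38. The median ratio between the highest and lowest calf over 13372 genes was 1.51, and 1.26%, 0.920%, 1.15% and 9.86% of genes had at least the ratio of EPHA3, PLPPR4, PTPRT and NRP1.

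Calf 2 also stood apart in markers. The chondrocyte markers COL11A1 and HAPLN1, 2 of 8 on the list, summed to 18602 to 22319 CPM in its 4 libraries and to 1901 to 11702 CPM in the other calves. The fibroblast marker THY1 was lowest in calf 2 within each group. In condition A it was there at 23.8 and 28.7 CPM with shScramble and shCreb5, and in condition AB at 58.4 and 47.2 CPM. COL3A1 was lowest in calf 2 in every group but shScramble A. The superficial zone list did not move as a whole in calf 2. Within each group calf 2 had the lowest PRG4 and the highest GDF5, which was at 32.4 and 24.5 CPM there in condition A and at 89.9 and 97.4 CPM in condition AB with shScramble and shCreb5, while CREB5 was lowest in calf 2 in 3 of 4 groups. The part of these differences between calves in the levels of NRP1, EPHA3 and PLPPR4 was not tested.

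Markers of other cell types were compared because NRP1 is also expressed in blood vessels and in some immune cells. Of the endothelial list, 2 of 6 genes had an identifier. VWF, the more abundant in condition A, had 7.56 ± 2.74 CPM in shScramble A and 3.99 ± 0.904 in shScramble AB (SD, n = 4), and fell by 0.89 on the log2 scale with TGFβ2 (edgeR adjusted p = 0.00773, lower in 4 of 4 calves). In shCreb5 cells it fell by 1.60 (edgeR adjusted p = 0.00201, lower in 4 of 4 calves), from 12.4 ± 4.90 to 3.98 ± 1.09 CPM. TEK, the other endothelial gene, was not called, with log2 fold changes of 0.32 and 0.51. Their summed level in condition A was 14.7, 10.7, 14.3 and 8.25 CPM in calves 1 to 4 with shScramble and 14.9, 14.0, 23.6 and 11.1 CPM with shCreb5. In condition AB the sum was 9.03, 9.43, 11.2 and 8.85 CPM with shScramble and 8.92, 10.2, 9.44 and 6.70 CPM with shCreb5. This sum lay below those of the chondrocyte and superficial zone lists in every library. The lists hold different genes, so no share of cells is read from their levels.

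Of the macrophage and leukocyte list, 2 of 5 genes had an identifier. CD68 fell by 0.90 on the log2 scale with TGFβ2 in shScramble cells (edgeR adjusted p = 0.0194, lower in 4 of 4 calves) and by 1.80 in shCreb5 cells (edgeR adjusted p = 0.00423, lower in 4 of 4 calves). CD14, the more abundant in 3 of 4 groups, was not called in either, with log2 fold changes of 0.07 and -0.38. In condition A the sum of both was 25.5, 24.6, 41.7 and 22.7 CPM in calves 1 to 4 with shScramble and 25.2, 24.0, 92.7 and 33.7 CPM with shCreb5. In condition AB it was 14.6, 34.2, 33.8 and 22.0 CPM with shScramble and 12.2, 25.6, 30.4 and 16.9 CPM with shCreb5. Calf 3 with shCreb5 in condition A stood above all other libraries.

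LPL, 1 of 3 adipocyte markers, was not called with TGFβ2, with log2 fold changes of -0.43 and 0.55. The fibroblast markers COL3A1 and THY1, 2 of 4 on their list, were called higher with TGFβ2 by edgeR in both shRNAs, COL3A1 with log2 fold changes of 1.18 and 1.17 and THY1 with 1.43 and 1.08. By edgeR, COL11A1 was called higher in shCreb5 cells, with 1.11, and not in shScramble cells, with 0.47. HAPLN1 had -0.09 and 0.45 and was called by edgeR in neither, while DESeq2 called it in shCreb5 cells, with an adjusted p of 0.0269. No neural, Schwann, pericyte or smooth muscle marker had an identifier. The part of these cell types in the fall of NRP1, EPHA3 and PLPPR4 was not tested.

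The members were next set among 5 lists of related guidance and adhesion genes. An identifier was at hand for 41 of the 127 genes listed, and these come from tables ordered by the significance of the knockdown, so they favour genes that changed with shCreb5. In shScramble cells 40 of them were tested, of which 5 were called higher and 20 lower with TGFβ2, beside 1378 higher and 1178 lower of all 12879 genes. Their median was a log2 fold change of -0.42 beside -0.01 over all genes. In shCreb5 cells 6 of 41 were called higher and 20 lower, beside 2027 higher and 1857 lower of all 12769 genes, with a median of -0.50 beside -0.01. The share of all genes called lower, 9.15% in shScramble and 14.5% in shCreb5 cells, also stands beside the counts of each list. The counts include the members, and nothing particular to a list is read from them. For the difference of the TGFβ2 responses between shRNAs, edgeR called 0 of 41 and DESeq2 called 0. By edgeR 4 of these 41 had an unadjusted p under 0.05, beside 571 of all 13372 genes. The member PLPPR4 is among these 4.

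The list of neuropilins, plexins and their ligands, which holds NRP1 itself and semaphorins that bind plexins directly, had 14 genes tested in each comparison, with 3 called higher and 6 lower in shScramble cells and 4 higher and 7 lower in shCreb5 cells. SEMA3C, a secreted class 3 semaphorin, was 2.30 times as high with TGFβ2 in shScramble cells (edgeR adjusted p = 0.00172) and 1.92 times as high in shCreb5 cells (edgeR adjusted p = 0.00183), higher in 4 of 4 calves in each. SEMA3D, of the same class, rose on the log2 scale by 0.75 in shScramble cells (edgeR adjusted p = 0.00449) and by 0.55 in shCreb5 cells (edgeR adjusted p = 0.0292), higher in 4 of 4 calves in each. VEGFC, a growth factor of lymphatic vessels, rose by 0.78 in shScramble cells (edgeR adjusted p = 0.0125) and by 0.32 in shCreb5 cells (edgeR adjusted p = 0.0448, DESeq2 adjusted p = 0.0583), higher in 4 of 4 calves in each. Semaphorins thus moved both ways, since SEMA3A and SEMA4B were called lower in both comparisons.

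Of the Eph receptors and ephrins, 4 of 6 tested were called lower in shScramble cells and 6 of 7 in shCreb5 cells, and the rest were not called. EPHA7, a receptor of the same class as EPHA3, fell by 1.90 on the log2 scale in shScramble cells (standard error 0.31, edgeR adjusted p = 0.00440, lower in 4 of 4 calves), from counts between 5 and 69 without TGFβ2 to between 3 and 16 with it. In shCreb5 cells its log2 fold change was -1.62 (edgeR adjusted p = 0.0119). EFNB2, a membrane-bound ephrin, had log2 fold changes of -1.29 and -1.56 and was called in both comparisons.

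The adhesion phosphatases and neural adhesion molecules were divided, with 1 of 7 called higher and 3 lower in each comparison. PTPRT shares its subfamily with PTPRK, PTPRM and PTPRU. PTPRK was called lower, with log2 fold changes of -0.75 in shScramble cells and -1.02 in shCreb5 cells, and PTPRU was called higher, with 0.69 and 0.49. PTPRM was not called, with 0.05 and -0.10. CDH11, a cadherin of mesenchymal cells, was called lower, with -1.16 and -0.92.

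Of the phospholipid phosphatases, related proteins and LPA receptors, 4 of 9 were called lower in shScramble cells and 2 of 9 in shCreb5 cells, and the rest were not called. PLPP3, an enzyme that dephosphorylates lysophosphatidic acid, was called lower in both, with log2 fold changes of -1.06 and -1.19, while PLPPR1 was not called, with 0.10 and -0.11. Of the Slit, Robo, netrin and repulsive guidance genes, 1 of 4 was called higher in each comparison, and 3 and 2 were called lower. The riser was FLRT2, a membrane protein that binds Unc5 receptors, at 0.83 in shScramble cells (edgeR adjusted p = 0.00187) and 0.66 in shCreb5 cells (edgeR adjusted p = 0.00529), higher in 4 of 4 calves in each. ROBO2, a receptor for Slit proteins, was called lower, with -1.42 and -1.07.

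**Figure D4:**
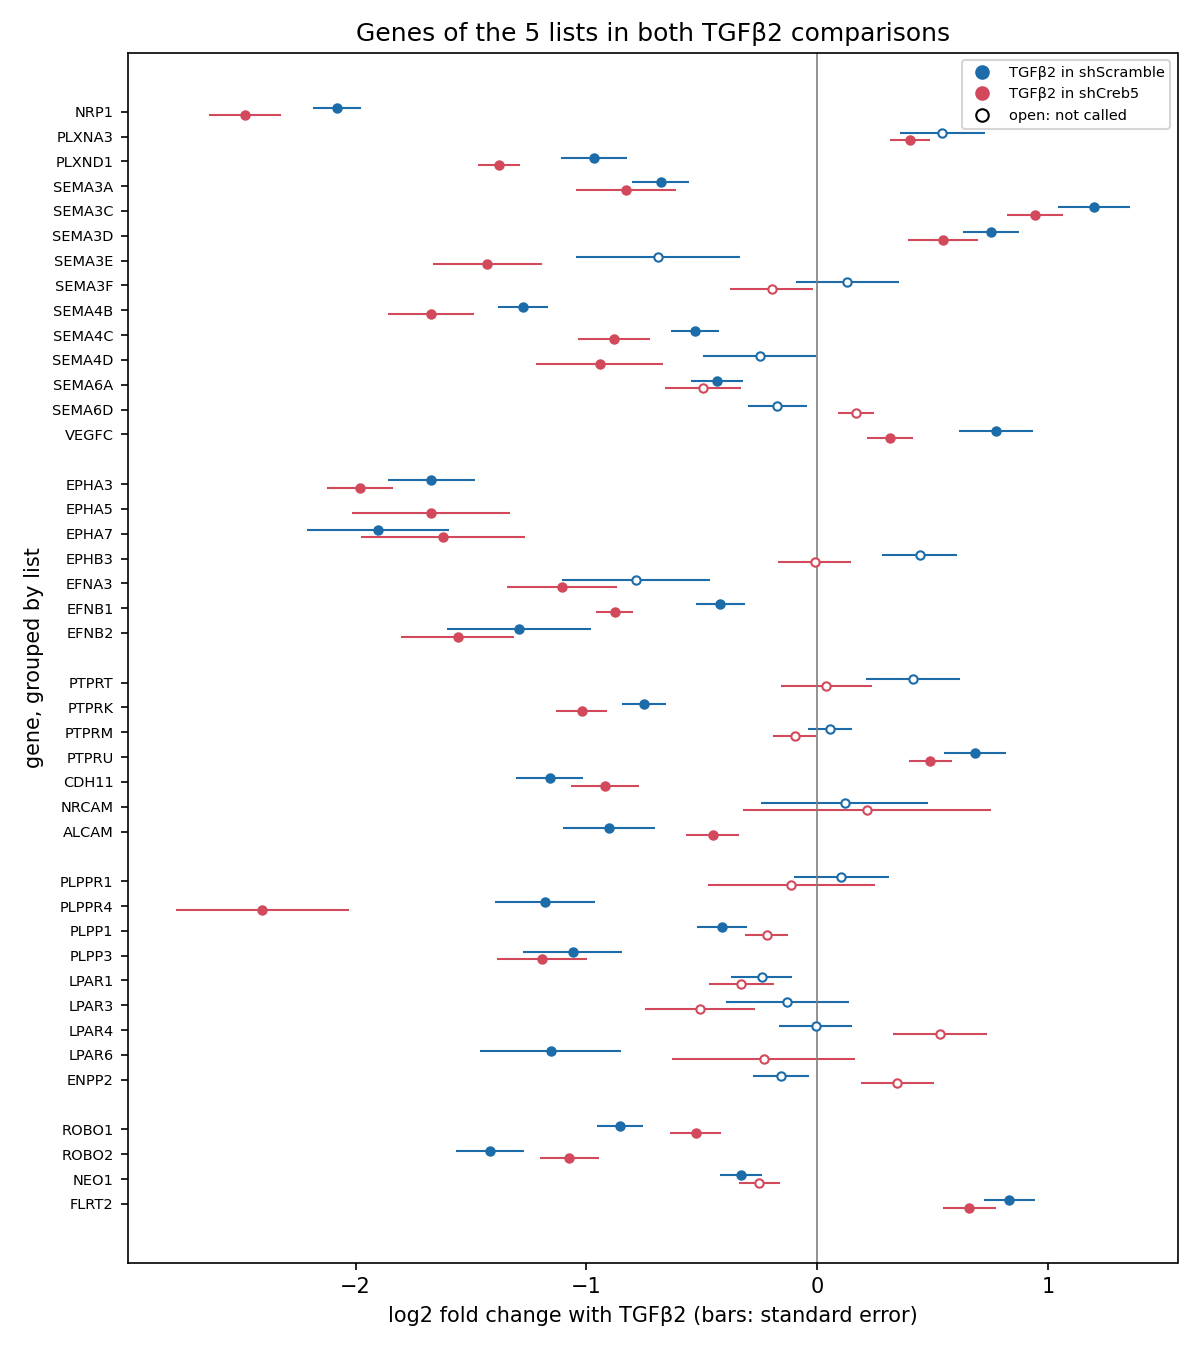
Log2 fold change with TGFβ2 and its standard error (horizontal axis) for the genes of 5 lists that had an identifier (vertical axis), in shScramble and shCreb5 cells, with open points for genes that were not called. Among the phosphatases PTPRK lies below 0, PTPRU above it and PTPRT is open in both comparisons, while no Eph receptor or ephrin is a filled point above 0.

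The genes most like each member were found by Pearson correlation of log2 CPM over the 16 libraries, after subtracting the mean of each calf, among 3164 other genes with a symbol. These libraries share calves and treatments and include the knockdown contrast that chose the members, and genes with a symbol favour those that changed with shCreb5. A likeness to CREB5 or to other genes that changed with the knockdown is therefore partly set by these choices, and the coefficients are descriptive. The nearest to NRP1 were HEG1 (r = 0.978), SCARA3 (0.975) and DAB2IP (0.971), and to EPHA3 they were PTPRK (0.970), NRP1 (0.958) and HEXIM1 (0.958). PLPPR4 was most like CREB5 (0.968), FAT4 (0.948) and GDF10 (0.932), and PTPRT was most like ASAP3 (0.942), GPRC5B (0.924) and MAGEL2 (0.907). Between the members, the coefficient was 0.892 for NRP1 and PLPPR4 and 0.833 for EPHA3 and PLPPR4. With PTPRT it was 0.151 for NRP1, 0.0493 for EPHA3 and 0.523 for PLPPR4. The coefficients of PLPPR4 depend on the prior count of 2. Its counts were between 0 and 12 in the libraries of calf 2. In calves 3 and 4 of shCreb5 AB they were 4 and 3.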

How the data were processed

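RNA-Seq libraries of superficial zone chondrocytes from 4 calves were analysed, with groups and calf numbers from the labels and doses and times from the study's methods. Single-end reads were quantified by the authors against UMD3.1 transcripts using Salmon, and gene totals made with tximport were deposited as estimated counts rounded to whole numbers, which were used as they stand. Total counts per library ranged from 14710867 to 21853634.

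R 4.3.3, edgeR 4.0.16, limma 3.58.1 and DESeq2 1.42.0 were used. Each comparison was fitted by edgeR's quasi-likelihood test after filterByExpr and TMM normalization, including a term for the calf, p-values were adjusted by Benjamini-Hochberg across every gene tested, and a gene was called at an adjusted p under 0.05. Standard errors and 95% intervals were derived from the F statistic. edgeR replaces p by a Poisson p where the fitted variance is below Poisson, which happened for 16 genes in shScramble cells and 18 in shCreb5 cells in the TGFβ2 comparisons, PTPRT among the latter. Its p and its interval therefore come from different calculations, and both p-values are given. The effect of dropping this step was added after seeing the data. Levels are CPM with TMM factors from all 16 libraries, with a prior count of 2 on the log2 scale.

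The calf numbers come from the labels, and libraries sharing a number deviated together, with a lowest correlation of 0.132 and a median of 0.670 over 24 pairs. Pairs from different calves had a median of -0.234 and reached 0.204, so the least alike pair of a calf was no more alike than some pairs of different calves. Within groups the lowest chi-square per degree of freedom between libraries was 74.0, so no library was a copy of another in its group. This measure was not taken between libraries of different groups. Symbols were matched for 3195 of 19454 genes, mostly through RefSeq, from the first 1998 identifier lines of tables sorted by the significance of the knockdown, so genes with a symbol favour those that changed with shCreb5. Named genes were the 4 members, CREB5 and PRG4, per TGFβ2 comparison up to 3 rising and 3 falling called list genes that moved alike in all calves, and the 3 most correlated genes per member. The remaining list genes named were picked with their values in view. The members and lists were chosen with earlier results of these data known. Alternatives were RLE normalization, DESeq2, other low-count filters, a model lacking the calf term, limma-voom, joint fitting of the 16 libraries and leaving out each calf. The functions were tested on simulated data. Promoter motifs were not analysed here. Sequencing kits were not assigned to libraries in the sources used here.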

Additional observations from a re-analysis of the deposited data

Results flagged for a closer look

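Among 40 sets of 4 values, 2 held a calf far from the others, and chance gives about 1 in 20, or 2 among 40. NRP1 with shScramble in condition A had its gap between calf 2 and the nearest calf at 0.943 of the whole range of log2 CPM, with 172 CPM in calf 2 and 507 to 541 CPM in the others. The difference of effects of PTPRT had a gap of 0.862 of its range, with -0.84 in calf 1 and -0.29 to -0.21 in the others, and calf 1 had 18 to 41 PTPRT counts per library.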

How the results depend on the processing

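The members called with TGFβ2 were 3 of 4 in both shRNAs under RLE normalization, DESeq2, both other filters, limma-voom and the single fit of 16 libraries, and leaving out a calf gave 3 in shScramble cells and 2 to 3 in shCreb5 cells. The lower value there came without calf 1, where PLPPR4 did not pass the filter. The fit without the Poisson step, chosen after seeing the data, changed no call.

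The calf block decided the calls. With no replicate block, 0 of 4 members were called in either comparison, and all genes called went from 2556 to 202 in shScramble cells and from 3884 to 194 in shCreb5 cells. In shScramble cells the log2 fold changes were then -2.09 for NRP1, -1.73 for EPHA3 and -1.10 for PLPPR4, with edgeR adjusted p of 0.0584, 0.407 and 0.590. In shCreb5 cells they were -2.53, -1.98 and -2.31, with 0.0570, 0.290 and 0.291. Sizes moved little, and the calf differences then enter the error.

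PTPRT in shCreb5 cells changed sign, uncalled, to -0.01 without calf 1 and -0.11 without calf 3, with a range of -0.11 to 0.13 over the calves left out. All genes called ranged from 1366, without calf 3, to 1926 in shScramble cells, and from 1962, without calf 4, to 3829 in shCreb5 cells, where 2408 were called without calf 3. For the knockdown in A, edgeR called 0 genes, DESeq2 79, and leaving out a calf gave 0 to 1. For the knockdown in AB edgeR called 0, DESeq2 55, edgeR with no filter 17, limma-voom 1, the single fit 6, and leaving out a calf 0 to 2. For the difference of effects DESeq2 called 10 and edgeR 0. The cause was not tested. Low counts limit PLPPR4 in all groups of calf 2 and in calves 3 and 4 of shCreb5 AB, and PTPRT in calves 1 and 2.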
